A study of Brassica juncea with 4 samples.

Results

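miR160 and the auxin response factor (ARF) transcripts that it cuts were followed in floral buds of Brassica juncea. The members were all small RNA entries numbered exactly 160, from either arm of the hairpin and with identical sequences joined, and every gene on whose transcript a cut was listed for one of them. These were 6 of 288 entries, or 4 of 248 distinct sequences, and 2 of 446 target genes, ARF17 (AT1G77850) and ARF16 (AT4G30080). The rule used names and not levels.

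Buds were compared between a cytoplasmic male sterile (CMS) line and its maintainer fertile (MF) line. The CMS line carries a cytoplasm donated by B. rapa and was backcrossed to fertile B. juncea for 13 generations, and the MF line was that fertile B. juncea, selfed. All buds of an inflorescence were taken from flowering plants under long days, and buds of 6 plants were pooled. Each line had 1 small RNA library and 1 degradome library, so no spread between plants could be measured, each test compared libraries and not lines, and each 95% interval covered counting error only. The small RNA libraries held 7331757 (MF) and 3192676 (CMS) mappable reads, and the degradome libraries held 7717843 and 4967302 reads mapped to Arabidopsis cDNA. No mRNA level was used here, so the bud label was not checked against marker transcripts.

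In Arabidopsis, miR160 is cut from 3 hairpins and guides cleavage of ARF10, ARF16 and ARF17. These encode auxin response factors that act as repressors of auxin-responsive transcription, in contrast to the activators ARF6 and ARF8, which are cut by miR167. Loss of miR160 control of these genes disturbs leaf, root and flower development, and ARF17 also acts in pollen wall formation. The degradome assay reads the uncapped 5′ ends of polyadenylated RNA, and an end that falls opposite the middle of a miRNA marks a product of its cut.

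The mature sequence is shown first because its match to a transcript along its length sets the targets and its middle sets the cut. The capitals mark the seed, bases 2 to 8, in the first line and bases 10 and 11, between which the cut is expected, in the second.
miR160a, miR160b and miR160c, seed: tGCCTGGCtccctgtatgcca
miR160a, miR160b and miR160c, bases 10 and 11: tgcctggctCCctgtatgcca
The 3 entries had this same sequence of 21 nt, so their reads could not be divided among the 3 hairpins. None of the other 247 distinct sequences had the seed of miR160, and the nearest of the other 102 sequences of 21 nt, miR168a, had the same base at 10 of 21 positions.

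The hairpins, which in contrast to the mature sequence differ from each other, are shown with both arms in capitals, the mature arm first.
MIR160a, TAIR10 chr2:16340257-16340378, plus strand: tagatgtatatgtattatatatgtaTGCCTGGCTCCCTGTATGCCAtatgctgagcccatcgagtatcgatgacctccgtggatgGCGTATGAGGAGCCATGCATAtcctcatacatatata
MIR160b, TAIR10 chr4:9888982-9889078, plus strand: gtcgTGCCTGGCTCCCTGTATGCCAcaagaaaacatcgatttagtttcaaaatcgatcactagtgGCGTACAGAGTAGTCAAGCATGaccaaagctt
MIR160c, TAIR10 chr5:19009082-19009198, minus strand: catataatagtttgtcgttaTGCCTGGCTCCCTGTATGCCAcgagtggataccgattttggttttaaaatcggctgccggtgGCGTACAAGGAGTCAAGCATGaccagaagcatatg
These are Arabidopsis sequences to which the B. juncea reads were assigned, and whether they lie within annotated genes was not examined here. The deposited folds had free energies of -56.2 kcal/mol for MIR160a, -41.7 for MIR160b and -53.0 for MIR160c, against a median of -58.7 over the 99 hairpins folded in the same way. Their folding energy indices, which correct for length and GC content, were 1.1, 0.9 and 1.0, against a median of 1.0. In these folds 16, 16 and 17 of the 21 mature bases were paired with the other arm. The hairpins were thus of ordinary stability in this set, with the mature sequence on the 5′ arm in each. The stretch between the arms was 39, 40 and 41 nt long and was itself partly paired.

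**Figure D1:**
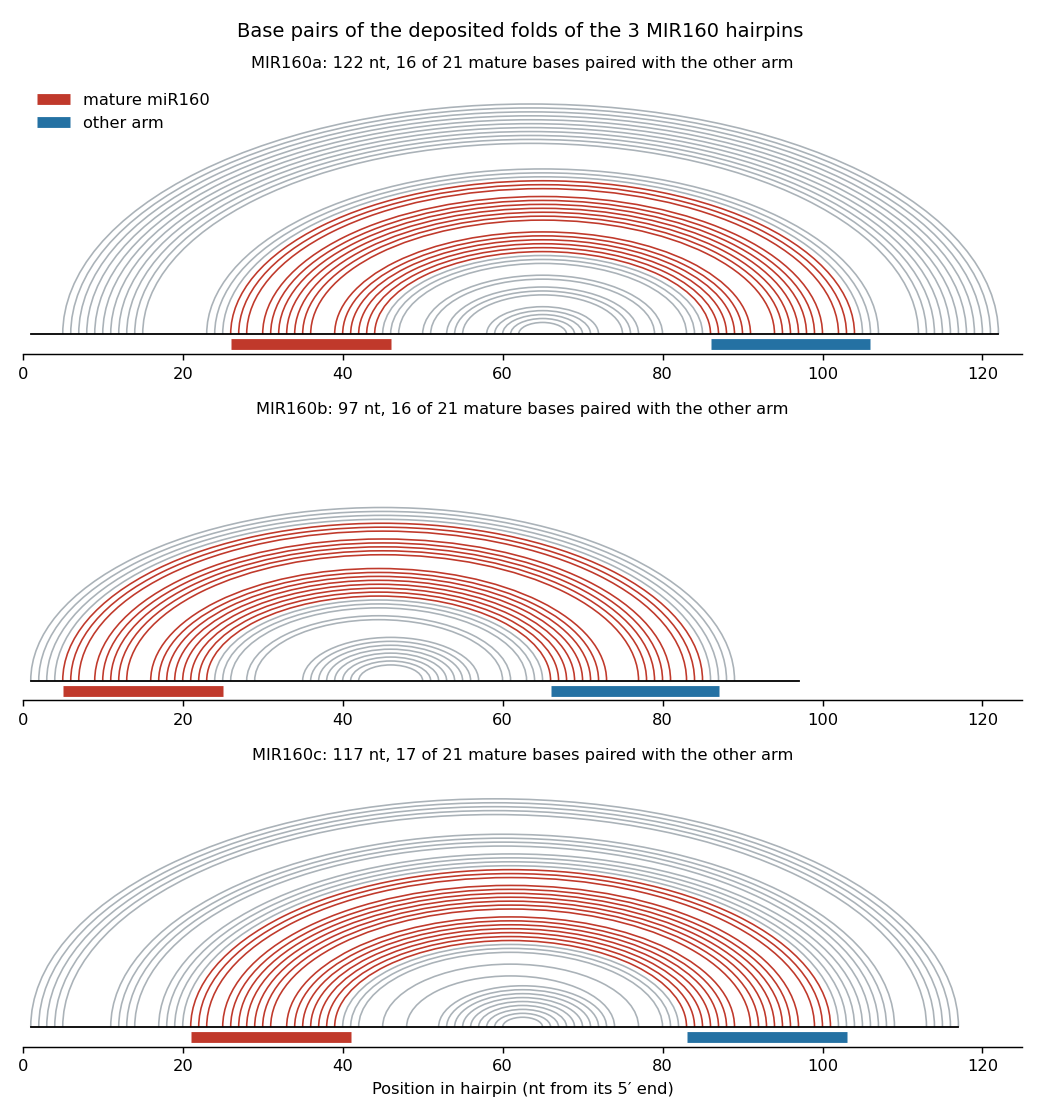
Base pairs of the deposited folds of MIR160a, MIR160b and MIR160c, with position from the 5′ end in nt on the horizontal axis and an arc for each pair. Red arcs join the mature sequence (red bar) to the other arm (blue bar) and number 16, 16 and 17, while grey arcs are the remaining pairs.

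The arm opposite the mature sequence could be read for each hairpin by itself, since the 3 differ there. The single capital marks a base that differs from the Arabidopsis hairpin.
MIR160a-p3: gcgtatgaggagccatgcata
MIR160b-p3: gcgtacagagtagtcaagcatg
MIR160c-p3_1ss13TC: gcgtacaaggagCcaagcatg
The arm of MIR160a was read 3 times in MF and 1 time in CMS. The arm of MIR160b, at 22 nt the longest of the members, was read 5 times in MF and 6 times in CMS. The arm of MIR160c had 0 reads in MF (exact Poisson interval 0 to 3.69 reads, or up to 0.503 per 1000000 mappable reads) and 1 read in CMS. That read carried T13C, counted from 1 at the 5′ end of the arm with the Arabidopsis base first. Reads of the MIR160a and MIR160b arms were therefore present in both libraries, and that of MIR160c rested on a single read. The arms of MIR160a and MIR160c had the same base at 17 of 21 positions.

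Together the other arms made up 8 of 4448 miR160 reads in MF, or 0.180% (exact Clopper-Pearson 95% interval 0.0777 to 0.354), and 8 of 3501 in CMS, or 0.229% (0.0987 to 0.450). The intervals overlapped, so no difference between the libraries was detectable at this depth. Among the 15 families with at least 100 reads in each library and reads from both arms, the arm with fewer reads over both libraries together made up a median of 2.49% in MF and 4.14% in CMS. The share was lower than that of miR160 in 1 family in MF and in 3 in CMS. miR160 was thus among the families whose reads came almost wholly from 1 arm in these tables.

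Mature miR160 (ath-miR160a) was one of the most abundant miRNAs of the buds in both lines. Its raw reads numbered 4440 in the MF library and 3493 in that of CMS, and it held rank 3 of 248 sequences in MF and rank 4 in CMS. This came to 606 reads per 1000000 mappable reads (exact Poisson interval 588 to 624) in MF and 1094 (1058 to 1131) in CMS. As a share of all miRNA reads it was 4.89% (4.75 to 5.03) in MF and 3.33% (3.22 to 3.44) in CMS. The order of the libraries thus turned with the denominator. All miRNA reads together numbered 90880 for MF and 105033 for CMS, of which miR319a alone gave 50580 and 74029. In pooled buds, fewer cells of a type and less RNA per cell cannot be told apart.

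On the authors' normalized values, the deposited scale on which the test was run, miR160 stood at 3980 in MF and 3897 in CMS. The ratio of CMS to MF from raw reads and the same factors was 0.979 (0.937 to 1.02). It was not called by the combined rule, in which Fisher's exact and chi-squared tests must both be under 0.01 and the Audic-Claverie probability under 0.01 over the count of sequences tested (two-sided exact Fisher p = 0.355). The 3 other-arm sequences were not called either, with Fisher's exact p from 0.549 to 1, at 1 to 11 raw reads over both libraries. Thus 0 of 4 members were called, against 14.1% (35) of all 248 sequences. The log2 ratio of mature miR160 lay 0.004 above the median of the 86 sequences with at least 20 reads and reads in both libraries, a difference that no scaling moves.

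**Figure D2:**
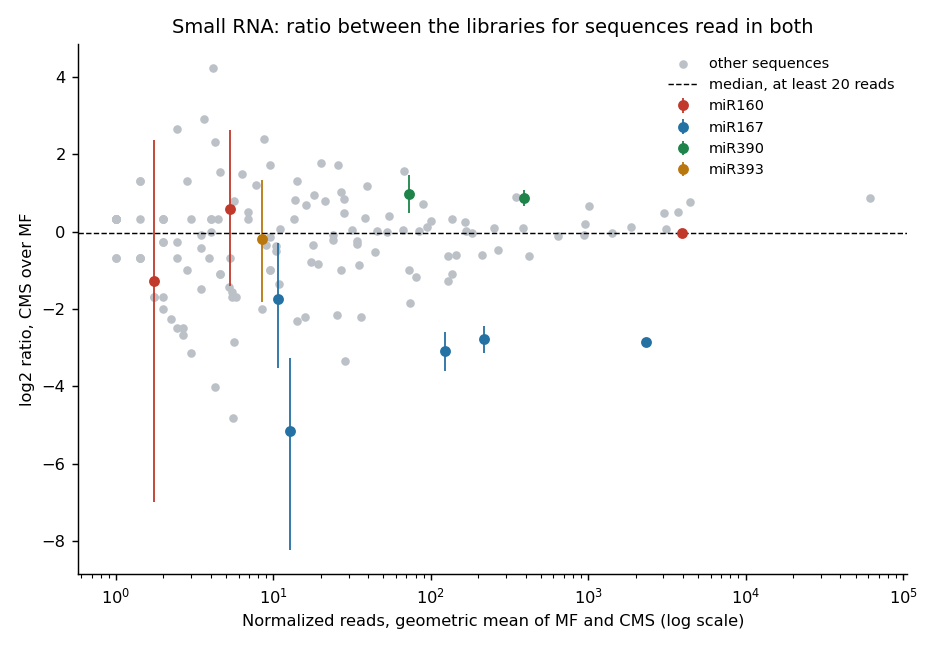
Log2 ratio of CMS to MF against normalized reads (geometric mean of the libraries, log axis) for each distinct sequence with reads in both libraries, with exact 95% intervals for the miR160, miR167, miR390 and miR393 families. Mature miR160, the red point farthest to the right, lies on the dashed median line, while the 2 other-arm sequences at few reads have wide intervals.

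The sequences whose ratio between the 2 libraries was nearest to that of miR160, among 24 others with at least 100 raw reads in each, were miR170_1ss3AT, miR858 and miR168a. Their log2 ratios were -0.04, -0.05 and 0.02 and differed from that of miR160 by 0.008, 0.016 and 0.045. All 3 intervals contained that of miR160, so these neighbours could not be ordered.

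A ratio of miR160 to another miRNA in the same library needs no scaling. Against miR167a, which guides cleavage of ARF6 and ARF8, there were 0.637 reads of miR160 for each read in MF (0.614 to 0.662) and 4.51 in CMS (4.17 to 4.88). miR167a itself fell from 6967 raw reads (MF) to 774 (CMS), and the order of the pair was opposite in the 2 libraries. Against miR390a, which starts the tasiRNA pathway that acts on ARF3 and ARF4, miR160 had 13.7 reads for each read in MF (12.3 to 15.4) and 7.38 in CMS (6.71 to 8.15). miR393a, which acts on auxin receptor transcripts, was read only 10 times in MF and 7 times in CMS. The miRNA that guides cutting of repressor ARFs thus went from fewer reads than that of the activator ARFs in MF to more in CMS. Of the 15 sequences in these 4 auxin-related families, 2 of miR390 were called higher in CMS and 4 of miR167 lower, and 9, with all of miR160, were not called.

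The cut of ARF17 was listed in both degradome libraries, at base 1420 of the cDNA AT1G77850.1. ARF17 lies at TAIR10 chr1:29272313-29275419 on the plus strand, and its cDNA is 2076 nt long. miR160 aligned to bases 1409 to 1429 with a score of 0.5, on a scale where lower is the closer match and the tables reach 4. The site stood opposite base 10 of miR160, counted from its 5′ end, which is one of the bases in capitals above. Listed sites are placed opposite this base, so the position is no separate evidence for the cut. The cut was of category 0 in both libraries, which means more than 1 read and the single highest position of the transcript. Its CleaveLand p-value, as deposited, was 0.00386 in MF and 0.00296 in CMS.

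ARF17 had 16 reads at the cut in MF (exact Poisson interval 9.15 to 26.0) and 51 in CMS (38.0 to 67.1). Per 1000000 mapped reads this was 2.07 (1.18 to 3.37) in MF and 10.3 (7.64 to 13.5) in CMS, and the intervals did not overlap. With 1 transcript taken per gene, the cut ranked 15th of 384 listed sites in MF and 8th of 277 in CMS, and 9th of 24 and 7th of 35 among those of category 0. The ratio of CMS to MF was 4.95 per mapped read (2.78 to 9.30), or 2.31 on the log2 scale. It was called by the two-sided exact conditional binomial test on the reads, with a Benjamini-Hochberg adjusted p of 1.80e-08 over the 200 gene and site pairs listed in both tables. In these 200 pairs 17% (34) were called higher in CMS and 3 lower. The reads at the ARF17 cut were divided over no other transcript.

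The well-read sites as a group were higher in CMS too. Of 35 sites with at least 5 reads in each library and 1 transcript per gene, 26 had a ratio above 1, the median log2 ratio was 1.30, and 7 lay above ARF17. These sites are not all separate measurements, since some genes share reads. The sites of AT1G07920, AT1G07930 and AT1G07940, above ARF17 at 2.39, had the same 8 (MF) and 27 (CMS) reads. The median is the value of SPL10, which shares reads with SPL11. Reads were also scaled by the median ratio of 50 sites, which are such sites counted on each transcript of a gene. Their median log2 ratio was 1.30 too. With this scaling ARF17 was 1.0 higher on the log2 scale (0.17 to 1.91). The call was lost, with an adjusted p of 0.0935 in the same exact test. This scaling was added after the data were seen.

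**Figure D3:**
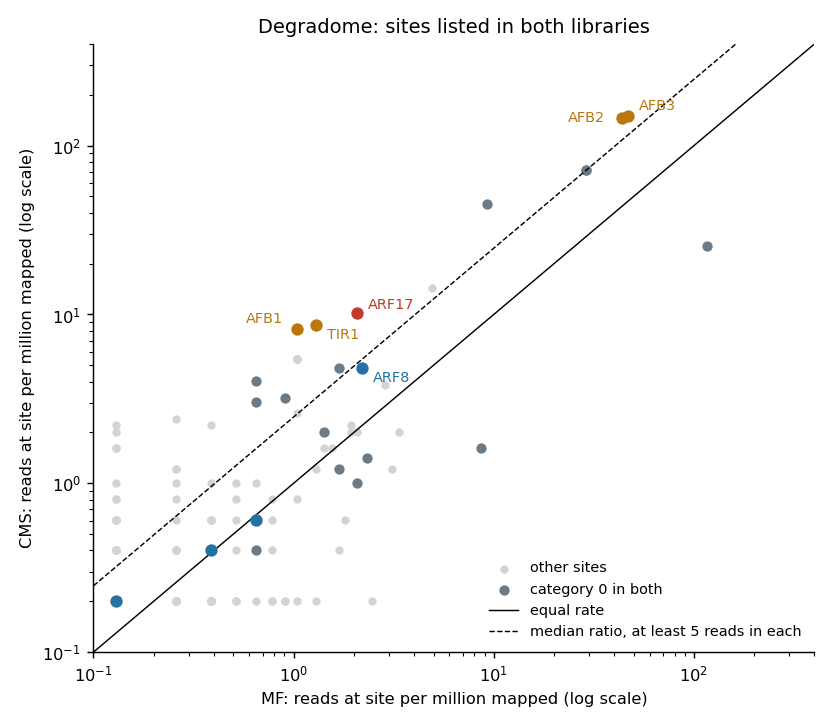
Reads per 1000000 mapped reads in MF (horizontal) and CMS (vertical), both on log axes, at each cut listed in both tables, with 1 transcript per gene. ARF17 (red, 2.07 in MF and 10.3 in CMS) lies above the line of equal rates and also above the dashed line of the median ratio, as do the miR393 targets AFB1, AFB2, AFB3 and TIR1 (ochre); miR167 targets are in blue.

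ARF16 was listed in MF only, at base 1519 of the cDNA AT4G30080.1. ARF16 lies at TAIR10 chr4:14703201-14706336 on the minus strand, with a cDNA of 2360 nt. miR160 aligned to bases 1508 to 1528 with a score of 2.5, so the match was less close than that to ARF17, and the cut again stood opposite base 10. It had 5 reads in MF (1.62 to 11.7), or 0.648 per 1000000 mapped reads, was of category 0, and had a deposited CleaveLand p-value of 0.00276. At the rate in MF, 3.22 reads would be looked for at the depth of CMS. The tables list sites down to 1 read, but an unlisted site is not a count of 0, and no ratio was formed. ARF10, the remaining member of the repressor group, was listed in neither table. Reads were mapped to Arabidopsis cDNA, and the part that B. juncea sequence differences play in which cuts were listed was not tested.

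Both listed cuts thus shared category 0, and both lay in the later part of the transcript, at 68.4% of the cDNA length in ARF17 and 64.4% in ARF16. They also faced the same miRNA base, but the listing places sites opposite that base, so this is no trait of the 2 genes. Whether these bases are coding was not examined here.

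Within MF, ARF17 had 16 reads against 5 for ARF16. In CMS ARF17 had 51 reads and ARF16 was not listed, so ARF17 supplied all listed miR160 cleavage reads there.

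ARF17 was set beside the other auxin genes. Of 13 genes in the auxin list (the miR160, miR167, miR390 and miR393 targets and related ARFs), 8 had a cut by these families listed in MF and 7 in CMS. At the 9 sites of the 7 genes listed in both, 5 were called higher in CMS, against 17% of all 200 pairs, and 0 lower. With 1 transcript per gene, as for the 9 sites, 23 of 142 pairs were called higher. Genes that share reads, such as SPL10 and SPL11, are still each counted in the 142. The median log2 ratio of the 9 was 1.68, the value of AFB3, against 0.64 over all 200 and over the 142. Many of the 200 pairs have few reads. Of the 27 pairs with category 0 in both tables, 17 were called higher when these alone were tested, with a median of 1.30. These 27 count the same cut again on each transcript of a gene and include 4 of the 5 called auxin sites. They are thus no separate base to set the auxin sites against. The value 0.64 is also that of a site with equal read numbers, since CMS was the shallower library. The 5 were ARF17 and the auxin receptor genes TIR1, AFB1, AFB2 and AFB3, whose transcripts are cut under miR393 and whose products bind auxin. AFB2 and AFB3 share most of their reads, so the 5 are not all separate measurements. The 4 sites that were not called were those of the activators ARF6 and ARF8. Those of ARF6 had 1 and 5 reads in MF and 1 and 3 in CMS, and the lesser site of ARF8 had 3 and 2. Sites with so few reads could hardly be called, so the lack of a call there says little. All 5 called sites stayed above 1 under each read scaling, and 4 of them, without ARF17, were called when scaled by the median ratio.

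The TIR1 cut went from 10 reads (MF) to 43 (CMS) and that of AFB1 from 8 to 41. AFB2 had 337 and 724 and AFB3 had 361 and 745, but most of their reads matched both transcripts and cannot be assigned to one of them. The log2 ratios were 2.74 for TIR1, 2.99 for AFB1, 1.74 for AFB2 and 1.68 for AFB3, and the interval of ARF17, 1.47 to 3.22, contained all 4.

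ARF8 had 17 reads (MF) and 24 (CMS) at its main cut, a log2 ratio of 1.13 (0.18 to 2.12) that was not called, with an adjusted p of 0.0810 in the same exact test. ARF17 and ARF8 thus had nearly equal read numbers in MF, and in CMS ARF17 had 2.13 reads for each read of ARF8. The intervals of their log2 ratios overlapped.

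The genes whose ratio was nearest to that of ARF17, among 6 others with a category 0 cut in both tables and at least 20 reads in each, were AT1G27340, AFB2 and AFB3. AT1G27340, an F-box gene cut under miR394, had 71 reads (MF) and 225 (CMS), a log2 ratio of 2.30 that differed from that of ARF17 by 0.008. AFB2 and AFB3 differed by 0.57 and 0.63, but they share most of their reads and are not separate neighbours. Another pair among the 6 shared reads too. The likeness is over 2 libraries only.

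With the main scalings, the miRNA and its cut did not differ by the same amount between the libraries. On the log2 scale mature miR160 was at -0.03 (-0.09 to 0.03) with the deposited factors, while the ARF17 cut was at 2.31 (1.47 to 3.22) per mapped read. Whether the intervals were apart depended on the scalings. With miR160 scaled by mappable reads it was at 0.85 (0.79 to 0.92), under the interval of the cut per mapped read, and with raw reads it was at 1.48 (1.42 to 1.54), which lies within that interval. The value 0.85 also lies within the intervals of the cut on reads as deposited (0.84 to 2.58), with reads at all listed sites (0.61 to 2.36) and with the median ratio of sites (0.17 to 1.91). For ARF8 the miRNA was at -2.85 (-2.96 to -2.75) and the cut at 1.13. The 2 assays were scaled separately and the level of intact ARF17 mRNA was not measured here, so reads at the cut per transcript are not known.

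**Figure D4:**
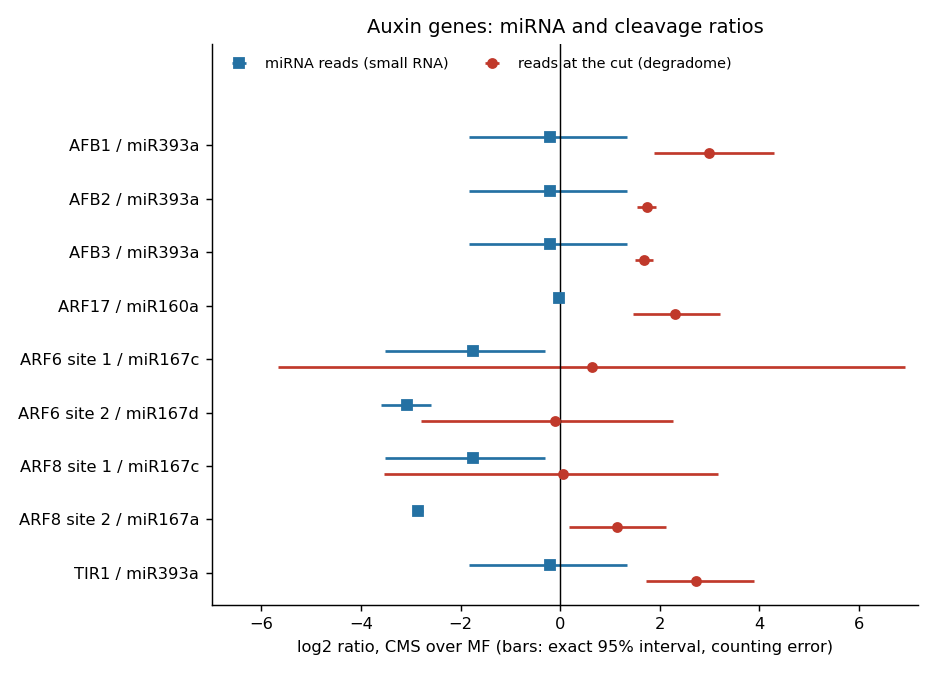
Log2 ratio of CMS to MF for the miRNA (blue squares, deposited factors) and for reads at the cut (red circles, per mapped read) of each auxin gene cut listed in both libraries, with exact 95% intervals. For ARF17 the miRNA lies at -0.03 and the cut at 2.31, and the intervals are apart with these scalings.

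The ratio of mature miR160 depended on the scaling. It was called higher in CMS when reads were scaled by mappable reads or by raw reads (log2 ratio 1.48) and called lower when scaled by total miRNA reads (-0.55), whereas it was not called with the deposited factors, with miR319a and miR319b left out of the total (0.03) or with the median ratio (0.00). The ARF17 cut was higher in CMS under each of the 4 read scalings, with log2 ratios from 1.0 to 2.31.

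**Figure D5:**
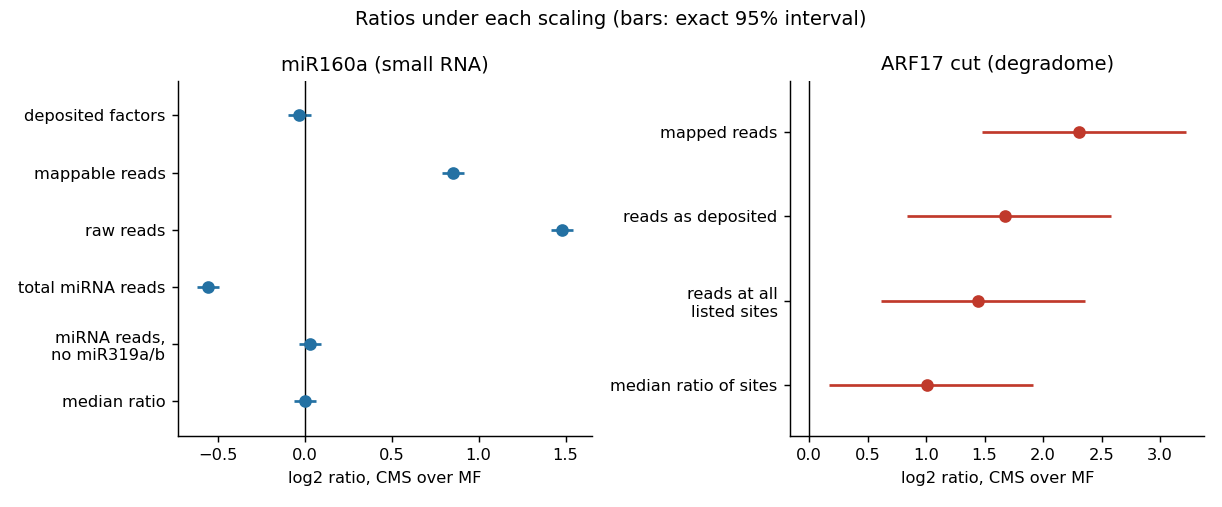
Log2 ratio of CMS to MF with exact 95% intervals for mature miR160 under 6 scalings (left) and for the ARF17 cut under 4 (right). The values of miR160 run from -0.55 to 1.48 on both sides of 0, while those of ARF17 run from 1.0 to 2.31, all above 0.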

How the data were processed

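Small RNA and degradome libraries of CMS and MF floral buds were sequenced, 1 of each per line, and grouped by their labels. The members, lists and tests were chosen with earlier results of these data known. For the small RNA, the authors trimmed reads and compared them with miRBase 18.0 and the TAIR10 genome, and deposited a raw count per miRNA and a normalized value, a score rounded to whole numbers. The scaling factors were taken as normalized over raw reads of miR319a, at 0.896 (MF) and 1.12 (CMS). On the degradome reads the authors ran CleaveLand 3.0 after mapping to Arabidopsis cDNA, and they deposited a count of reads at each cut, an alignment score, a category and a p-value. The signal of reads divided by transcripts hit was also deposited and entered 1 alternative. The authors' log2 ratios, which are their own comparison, were not used. The aligner is not given in the sources used here.

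Distinct sequences were tested with the Audic-Claverie, Fisher's exact and chi-squared tests on normalized values with totals of 1000000. Cuts were joined by gene and position and tested with an exact conditional binomial test given mapped reads, with Benjamini-Hochberg adjustment. A call needed an adjusted p under 0.05. Ratios have exact 95% intervals, and reads without molecular identifiers are not independent molecules. Named genes were the members, the auxin list by count, and 3 nearest sequences and genes by log2 ratio. Python 3.11 with scipy was used, and the calculations were tested on simulated data.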

Additional observations from a re-analysis of the deposited data

How the results depend on the processing

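Mature miR160 (log2 ratio -0.03, not called) turned direction with scaling by mappable reads (0.85) and by raw reads (1.48), and was called lower with total miRNA reads (-0.55); in 7 other alternatives it was not called. Of these 7, only scaling without miR319a and miR319b (0.03) and by the median ratio (0.00) changed the ratio. The scalings by mappable, raw and total miRNA reads moved the median over 86 sequences (20 or more reads, present in both) from -0.03 to 0.85, 1.48 and -0.56. miR160 moved with it. Sequences called numbered 35, and 59 with raw reads. Of the calls, 13 of 35 were higher in CMS with the deposited factors, 39 of 49 with mappable reads, 53 of 59 with raw reads, 4 of 38 with total miRNA reads, and 17 of 37 without miR319a and miR319b.

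The ARF17 cut (2.31, called) stayed called in 5 alternatives and had the same ratio when divided by transcripts hit, which gives no test. Of the 5, only reads as deposited (1.67) and reads at all listed sites (1.45) rescaled the reads. The others kept the ratio and changed only the set of sites tested, which held ARF17. It lost its call with the median ratio of the 50 sites with at least 5 reads in each library (1.0), chosen after seeing the data. Sites called numbered 37, and 19 of 27 with category 0 in both tables, 12 of 18 with a CleaveLand p under 0.05 in both (fewer sites tested), and 21 with the median ratio. Calls higher and lower were 34 and 3, 25 and 6 on reads as deposited, 24 and 12 with reads at all listed sites, and 5 and 16 with the median ratio. The 1-transcript-per-gene alternative was also added after seeing the data.

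The alternatives for ARF10 and ARF16 gave no value, since neither cut is listed in both tables. Leaving out a replicate was not applicable with 1 library per group. No paired analysis was possible because each group has 1 library and the labels carry no replicate numbers. Counts of 16 and 51 reads limit the precision of the ARF17 ratio, with a counting interval of 2.78 to 9.30 per mapped read, and the other scalings move the ratio itself.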
